A study of Mus musculus with 3 samples.

Results

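The 8 genes described here, Gzma, Gzmb, Gzmc, Gzmd, Gzme, Gzmf, Prf1 and Nkg7, belong to the cytotoxic granule of lymphocytes, and they were chosen by name from the 32285 genes of the count matrices. Their raw counts were read in all 30209 cell barcodes of 3 single-cell RNA libraries, and the barcodes were put into classes by a few marker genes. Granzymes are serine proteases that natural killer (NK) cells and cytotoxic T cells store in secretory granules. Perforin, the product of Prf1, forms pores in the membrane of a target cell and lets granzymes into it, and Nkg7 encodes a membrane protein of the granule that takes part in its release. Granzyme A cleaves after basic residues and granzyme B after aspartate, while Gzmc, Gzmd, Gzme and Gzmf are rodent granzyme genes of the same gene cluster as Gzmb.

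The libraries came from a study of the states of type 1 conventional dendritic cells (cDC1s) in tumours. Besides WT mice it used mice that lack secreted gelsolin, a plasma protein that severs actin, without or with loss of Clec9a, the receptor with which cDC1s sense actin exposed on dead cells. Mice on a C57BL/6J background, 6 to 20 weeks old, bore MCA205 LA OVA tumours, 1 on each flank, which were taken on day 5. There was 1 library for each genotype, from tumours pooled over 37 WT mice, 31 sGSN-/- mice and 27 sGSN-/-Clec9a-/- mice, with no other treatment named. No genotype had a replicate library, so genotypes were not tested against each other, and the intervals given for a library cover counting error only. Sets of 3 values below are in the order WT, sGSN-/-, sGSN-/-Clec9a-/-.

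The sort took live CD45-positive cells that were negative for lineage proteins, among them CD3e and NK1.1, and kept those with CD11c and MHC class II and without CD88, from which precursors of cDCs (CD135 and CD43), cDC1s (XCR1) and cDC2s (Sirpa) were sorted and then mixed at set numbers. The share of a class in a library is therefore a share of that mixture. Barcodes with transcripts of Cd3e or of Klrb1c, which encodes NK1.1, thus came through a gate meant to be negative for those proteins. The libraries held 12763, 8173 and 9273 barcodes with 176578136, 109270958 and 113411930 unique molecular identifiers (UMIs), and the median barcode held 13210, 11954 and 10649 UMIs. Barcode sequences shared between libraries numbered 26 for WT and sGSN-/-, 28 for WT and sGSN-/-Clec9a-/-, and 27 for the other pair.

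The class on which most values below rest is called the NK-marker barcodes: those outside the authors' table of cDC1s with 1 or more UMIs of Ncr1 or Klrb1c, genes of activating NK receptors. It held 1200, 1947 and 1477 barcodes, which were 9.40%, 23.8% and 15.9% of each library. Of 11 other NK cell markers, 6 or more were detected in 84.2%, 82.3% and 84.0% of these barcodes, against 0.0864%, 1.17% and 0.506% of the 5806 cDC1s of the table. By this check most of the class, though not all of it, had several NK markers. Of 5 genes of the T cell receptor complex (Cd3d, Cd3g, Trac, Trbc1 and Trbc2) 2 or more were detected in 46.0%, 44.3% and 42.3% of NK-marker barcodes, against 0.0864%, 0.876% and 0.112% of the cDC1s. Cd3e itself, which is not among the 5, was detected in 101 of 4624 NK-marker barcodes (2.18%). Of the 10 T cell markers used below, Trbc1 was the most abundant in the class, at 302, 292 and 262 CPM. Where Ncr1 and Klrb1c together had exactly 1 UMI, 22.9%, 32.2% and 43.1% of barcodes reached 6 markers, and where they had 2 or more, 96.8%, 94.9% and 94.0% did. Just inside the threshold, at 1 UMI, mean levels were 761 CPM for Gzma, 181 CPM for Gzmb, 269 CPM for Gzmc, 59.1 CPM for Prf1 and 274 CPM for Nkg7, where CPM is counts of a gene per 1e6 UMIs summed over the class. Just outside it they were read in the remaining barcodes, those outside the table with 0 UMIs of Ncr1, Klrb1c and Cd3e, fewer than 20 UMIs of C1qa, C1qb and C1qc and fewer than 3 UMIs of Siglech, where they were 38.4, 10.7, 23.2, 2.998 and 14.3 CPM.

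Some NK-marker barcodes also carried the RNA of antigen-presenting cells. In 994 of 4624 of them (21.5%), 4 MHC class II genes made up 1% or more of all UMIs, against 98.4% of the cDC1s. That share was 33.6% in NK-marker barcodes with Mki67, a gene transcribed in dividing cells, and 17.4% in those without it, and it was 52.4% at exactly 1 UMI of Ncr1 and Klrb1c. Among such barcodes 54.8%, 48.5% and 58.5% were in the 6% of their library with the highest doublet scores, and among the others 2.62%, 2.34% and 2.91% were. Leaving them out is an alternative chosen after seeing the data, and some of its results are given below.

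In NK-marker barcodes Gzma stood at 2389.8, 2626 and 2813 CPM, with exact Poisson 95% intervals of 2367 to 2413, 2606 to 2646 and 2787 to 2838 CPM. Gzmb, whose product activates caspases in the target cell, was at 722, 693 and 636 CPM. Prf1 was at 233, 220.2 and 214 CPM. Nkg7 was at 996, 1009.8 and 1047 CPM. These 4 genes varied little between libraries, with a mean and SD over the 3 libraries of 2609 ± 212 CPM for Gzma, 684 ± 44.0 CPM for Gzmb, 222 ± 9.64 CPM for Prf1 and 1017 ± 26.4 CPM for Nkg7. Gzmc was the most variable of the 5 main genes at 1533 CPM (1515 to 1552), 1262 CPM (1248 to 1276) and 669 CPM (657 to 682), a mean of 1155 ± 442 CPM. All 8 members together made up 0.590%, 0.583% and 0.538% of the UMIs of the class.

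Transcripts of Gzmd, Gzme and Gzmf were rare. Gzmd had 279, 126 and 18 UMIs in the class (16.4, 5.13 and 1.08 CPM), Gzme had 203, 142 and 26 UMIs (11.9, 5.78 and 1.56 CPM) and Gzmf had 42, 108 and 50 UMIs (2.47, 4.40 and 2.99 CPM). Gzmd and Gzme were highest in WT and lowest in sGSN-/-Clec9a-/-, and Gzmf was highest in sGSN-/-. A few barcodes carried these levels: 50% of the Gzmd UMIs lay in 2, 3 and 1 barcodes, of Gzme in 3, 7 and 3 and of Gzmf in 4, 4 and 1, where a single barcode of sGSN-/-Clec9a-/- had 34 of 50 Gzmf UMIs and 1 of WT had 92 of 279 Gzmd UMIs. The reference transcripts of Gzmd and Gzme are 94.8% identical over their aligned bases, those of Gzmd and Gzmf 86.9% and those of Gzme and Gzmf 86.4%, so the assignment of reads among these 3 genes is uncertain. Gzmc is 74.3%, 74.0% and 74.5% identical to Gzmd, Gzme and Gzmf.

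Nkg7 was found in the most NK-marker barcodes of the 5 main members and Gzmc in the fewest. At least 1 UMI of Nkg7 was present in 86.8%, 87.6% and 90.4% of them, of Gzma in 76.0%, 81.3% and 83.1%, of Gzmb in 73.0%, 72.4% and 72.4%, of Prf1 in 69.4%, 68.8% and 67.2% and of Gzmc in 37.7%, 39.8% and 26.1%. In WT the exact Clopper-Pearson 95% interval for Gzmc was 34.9% to 40.5%, and in sGSN-/-Clec9a-/- it was 23.8% to 28.4%. Classes differ in depth, so the shares were also taken after drawing 3000 UMIs from each barcode, which leaves out 533 NK-marker barcodes and 210 cDC1s with fewer. The thinned shares, as means over libraries, were 83.4% for Nkg7 (unthinned 88.3%), 73.8% for Gzma (80.1%), 59.1% for Gzmb (72.6%), 45.2% for Prf1 (68.5%) and 24.9% for Gzmc (34.5%). In the cDC1s of the table, taken as a measure of ambient RNA, the thinned shares were 1.63% for Nkg7 (unthinned 5.86%), 3.35% for Gzma (13.4%), 0.949% for Gzmb (4.29%), 0.204% for Prf1 (0.931%) and 1.46% for Gzmc (6.37%). Median depth was 11040.5, 8317 and 7552 UMIs in NK-marker barcodes and 14092, 14150.0 and 12231 UMIs in the cDC1s.

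Ordered by level over 7 classes of barcodes, Gzma and Prf1 formed clear steps. Gzma had a mean of 3460.1 ± 309 CPM (SD, n = 3 libraries) in NK-marker barcodes without Mki67, 1591 ± 187 CPM in those with Mki67, 649 ± 78.7 CPM in barcodes with Cd3e and no NK marker, and 38.4 CPM in the remaining barcodes, and the ranges of neighbours in this order did not overlap. Prf1 followed the same order at 278 ± 15.4, 155 ± 21.5, 33.8 ± 5.62 and 2.998 CPM, again without overlap. Gzmb was highest in NK-marker barcodes without Mki67 at 781 ± 44.7 CPM, and the next classes, Cd3e at 584 ± 67.3 CPM and NK-marker with Mki67 at 565 ± 63.3 CPM, overlapped. Nkg7 had the same pattern, with 1256 ± 59.4 CPM first and an overlap of Cd3e at 892 ± 165 CPM with NK-marker barcodes with Mki67 at 730 ± 47.0 CPM. Gzmc differed, being highest in NK-marker barcodes with Mki67 at 1509 ± 612 CPM and then in those without it at 845 ± 266 CPM, with overlapping ranges, while Cd3e barcodes at 26.6 ± 10.7 CPM overlapped the remaining barcodes at 23.2 CPM. For all 5 genes the cDC1s, barcodes with 20 or more UMIs of C1qa, C1qb and C1qc, and barcodes with 3 or more UMIs of Siglech came last and overlapped each other. The libraries serve as replicates of a class, so the SD also contains whatever differs between genotypes.

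**Figure D1:**
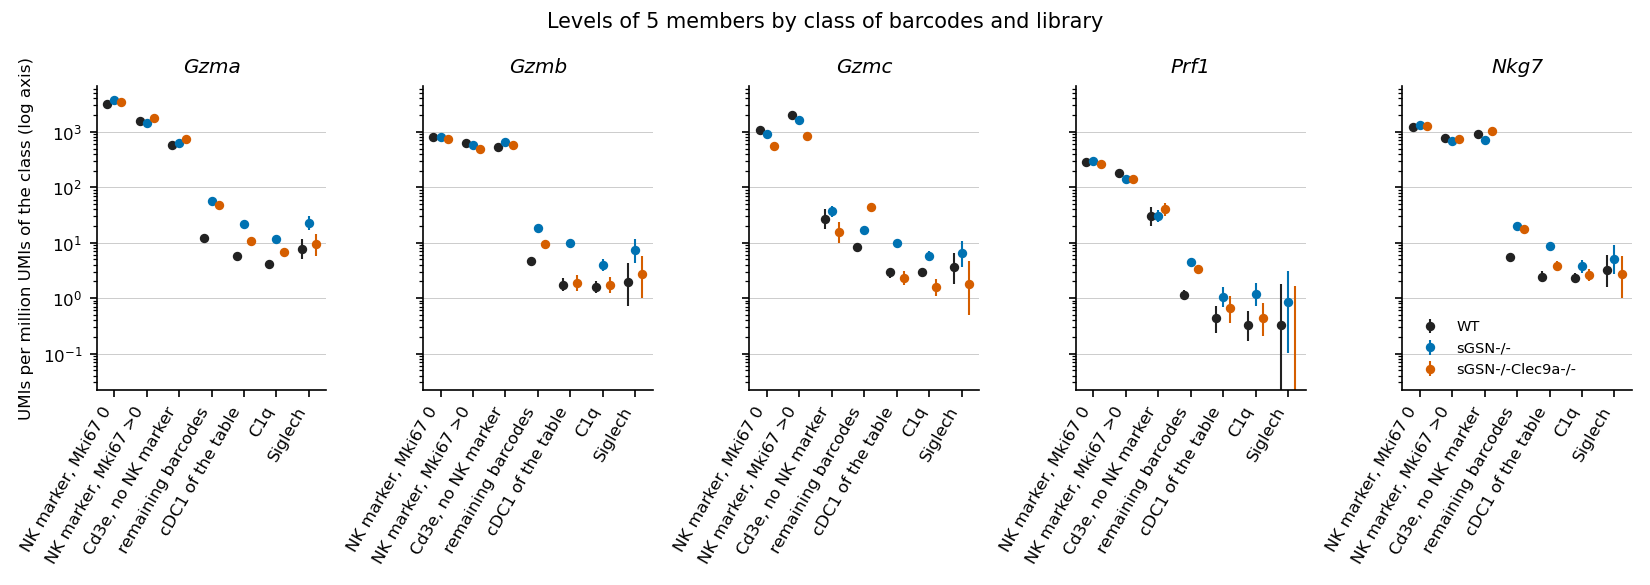
Levels of Gzma, Gzmb, Gzmc, Prf1 and Nkg7 in CPM (log axis) for 7 classes of barcodes, 1 point for each library with its exact 95% Poisson interval; a library with no UMI has no point. An NK-marker class lies highest for each of the 5 genes, and Gzmc alone is higher with Mki67 than without it in each library.

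UMIs of Gzmc were concentrated in few barcodes, those of Nkg7 were spread over most. The 10% of NK-marker barcodes with the most Gzmc held 86.6%, 89.8% and 94.98% of its UMIs, whereas the top 10% for Nkg7 held 26.0%, 27.9% and 26.9%. Gzma at 40.2%, 39.96% and 37.2% and Prf1 at 42.1%, 41.5% and 41.3% were alike, and Gzmb lay between these and Gzmc at 55.9%, 56.1% and 52.9%. Put another way, 39, 49 and 22 barcodes held 50% of all Gzmc UMIs of the class, against 171, 280 and 234 barcodes for Gzma and 288, 435 and 346 for Nkg7. The barcode richest in Gzmc had 740, 847 and 488 UMIs of it.

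**Figure D2:**
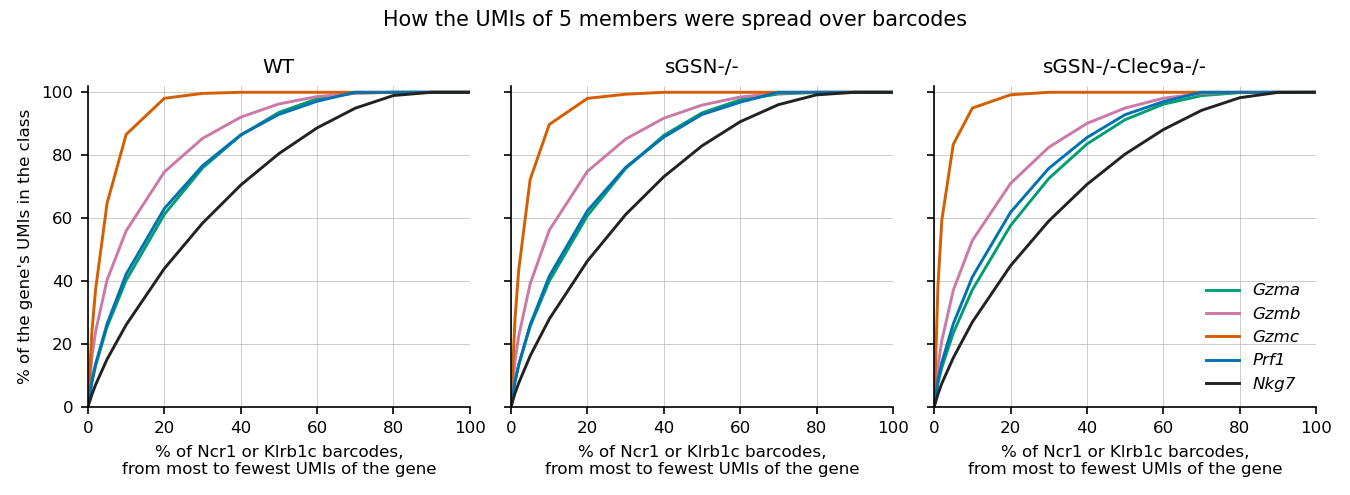
Cumulative share of the UMIs of 5 members (%) against the share of NK-marker barcodes (%), ranked from most to fewest UMIs of that gene, for each library. Gzmc reaches 86.6%, 89.8% and 94.98% at 10% of barcodes and Nkg7 26.0%, 27.9% and 26.9%.

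Overlaps of detection between members are given beside the share of each gene in the class. Over the 3 libraries 3722 NK-marker barcodes (80.5%) had Gzma, 3355 (72.6%) had Gzmb, 3165 (68.4%) had Prf1, 4082 (88.3%) had Nkg7 and 1612 (34.9%) had Gzmc. Of the barcodes with Prf1, 98.7% also had Nkg7 and 92.1% had Gzma. Gzmb was present in 83.4% of the barcodes with Gzmc, while Gzmc was present in 40.1% of those with Gzmb. Gzma was present in 81.0% of the barcodes with Gzmc, near its share of the class. Gzmd, Gzme or Gzmf was detected in 125 barcodes (2.70%; 40, 60 and 25 by library), with 994 UMIs in all, and 108 of the 125 (86.4%) also had Gzmc. In these barcodes the median Gzmc count was 50, 37.5 and 11 UMIs, against 9.5, 4 and 4 UMIs in all barcodes with Gzmc. Deeper barcodes have more genes detected together, and the part of depth in these overlaps was not tested.

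Between genotypes, which were not tested, Gzmc showed the widest spread of the 5 main members. Its level in sGSN-/-Clec9a-/- was 0.437 times that in WT (log2 ratio -1.20) and 0.530 times that in sGSN-/-, and the level in sGSN-/- was 0.823 times that in WT. The corresponding ratio of sGSN-/-Clec9a-/- to WT was 1.18 for Gzma, 0.880 for Gzmb, 0.919 for Prf1 and 1.05 for Nkg7. With the MHC class II rich barcodes left out, the Gzmc ratio of sGSN-/-Clec9a-/- to WT was 0.523. In sGSN-/-Clec9a-/- 14.4% of all Gzmc UMIs of the library lay in 8 barcodes with 10 or more Gzmc UMIs and no UMI of Ncr1, Klrb1c or Cd3e, against 1.51% in 4 such barcodes in WT and 0.511% in 7 in sGSN-/-. Of these 19 barcodes 13 had 6 or more of the 11 NK markers, 18 had Nkg7 and 6 had Gzma (0, 5 and 1 by library).

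The class was also split by whether a UMI of Mki67 was detected. The 1162 NK-marker barcodes with Mki67 had lower levels of the granule genes Gzma, Gzmb, Prf1 and Nkg7 than the 3462 without it, in each of the 3 libraries, while Gzmc was higher in each. Gzma was at 1564, 1419 and 1789.9 CPM with Mki67 and at 3133, 3747 and 3500.4 CPM without it. Prf1 was at 180.0, 143 and 143 CPM with Mki67 and at 281, 292 and 262 CPM without it. Both genes were lower with Mki67 in every library, and the ranges of the classes did not overlap. Nkg7 was at 769, 678 and 744 CPM against 1199.6, 1318 and 1250.2 CPM, and Gzmb was at 616, 584 and 494 CPM against 818, 794 and 731 CPM. Here too the ranges stayed apart. Gzmc was at 2045, 1640.1 and 842 CPM with Mki67 and at 1072, 911 and 553 CPM without it, so that the ranges overlapped while the class with Mki67 was higher within each library. The thinned share with a Gzmc UMI was 37.4% with Mki67 (unthinned 51.0%) and 20.2% without it (28.9%), with 68 and 465 barcodes left out for depth, beside 1.46% in the cDC1s.

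All 8 members passed the filter on low counts, and 0 were called higher and 4 lower with Mki67 in edgeR (quasi-likelihood test, p adjusted after Benjamini and Hochberg, called at 0.05), as they were in DESeq2. Over all 11525 genes tested 2711 (23.5%) were called, 1403 (12.2%) higher and 1308 (11.3%) lower, so the 4 of 8 lower members stand against a background of 11.3%. By the edgeR quasi-likelihood fit Gzma fell by 1.19 on the log2 scale (SE 0.103, Benjamini-Hochberg adjusted p = 1.92e-05), lower in 3 of 3 libraries. Prf1 fell by 0.91 (SE 0.0912, adjusted p = 5.77e-05 in the same edgeR fit), Nkg7 by 0.85 (SE 0.0712, adjusted p = 1.55e-05) and Gzmb by 0.54 (SE 0.0758, adjusted p = 0.000660), each lower in 3 of 3 libraries. These 4 calls were also made in all 13 alternatives run. Gzmc, at a log2 fold change of 0.77 (SE 0.287), was not called (edgeR adjusted p = 0.0812), although it was higher in 3 of 3 libraries. It was called in 6 of 13 alternatives, among them the fit with library as a block (0.73, edgeR adjusted p = 1.32e-06), the thinned counts (1.15, 6.91e-05), the fit without the sGSN-/-Clec9a-/- library (0.85, 0.000272) and the fit without MHC class II rich barcodes (0.91, 0.00311), and its adjusted p ranged from 1.32e-06 to 0.317. Gzmd (log2 fold change -1.07, adjusted p = 0.439), Gzme (-0.12, 0.919) and Gzmf (-0.44, 0.464) were not called in edgeR, and they were higher with Mki67 in 2, 2 and 1 of 3 libraries. Without the WT library Gzmd was at 0.70 (edgeR adjusted p = 0.587) and Gzme at 0.31 (0.779), so their direction rested on WT, where the 231 Gzmd UMIs without Mki67 were far more than the 58 and 2 of the other libraries. The median log2 fold change of the 8 members was -0.69, beside -0.02 over all genes. Without the sGSN-/- library 1016 genes were called and without the WT library 1715, with the same 4 members among them.

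Some genes that accompany the granule proteins were also lower with Mki67. Of 13 genes of granule assembly, processing and control, 9 were lower with Mki67 and 0 higher (median log2 fold change -0.42, beside -0.02 over all genes). Among them Serpinb9b fell by 1.19 (17.2 ± 2.92 against 38.0 ± 3.77 CPM), Serpinb6b by 0.73 (208 ± 14.5 against 328 ± 15.7 CPM) and Serpinb9 by 0.58 (213 ± 26.3 against 304 ± 21.1 CPM), which encode serpins of the family that inhibits granzymes in the cytosol. Cst7, for a cystatin that inhibits granule cathepsins, fell by 0.65 on the log2 scale. Of 9 genes of granule exocytosis 2 were lower (median -0.08): Stx11, a syntaxin of granule fusion, fell by 0.61, and Lyst by 0.35. Lyst was not called without the WT library (-0.39, edgeR adjusted p = 0.0689), without the sGSN-/- library (-0.26, 0.193), without scaling factors or on thinned counts. Outside the members, the granzyme gene Gzmk was lower (1.22 ± 0.546 against 3.14 ± 0.995 CPM), though not without the sGSN-/- library (adjusted p = 0.0912), without the sGSN-/-Clec9a-/- library (0.0913) or at 2 or more UMIs of the NK markers (0.0618), the edgeR adjusted p being 0.0228 with all 3 libraries. Gzmm was not called, and Gzmg and Gzmn were too low to test. Without the sGSN-/- library 4 of the 13 assembly genes were lower instead of 9.

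Some genes of secreted effectors, cytokine receptors and transcription factors of cytotoxic lymphocytes were also lower with Mki67. Over all genes tested 11.3% were called lower, and the lists as sets were not tested. Of 10 other effector genes 5 were lower and 0 higher (median log2 fold change -0.52). Ccl5, a chemokine stored by cytotoxic cells, was at 634 ± 161 CPM with Mki67 and 3178 ± 653 CPM without it and fell by 2.39, and Fasl, the death ligand, fell by 0.97. Of 10 cytokine receptor genes 6 were lower (median -0.38), among them Il12rb2, a chain of the interleukin 12 receptor, which fell by 1.24, Il18rap, which fell by 0.70, Il18r1, which fell by 0.65, and Il2rb, which fell by 0.57. Of 11 transcription factor genes 5 were lower (median -0.43), with Eomes, a T-box factor of NK cells, falling from 115 ± 13.3 to 82.0 ± 4.99 CPM. Without the sGSN-/- library the lower counts were 2 of 10, 4 of 10 and 2 of 11. All 13 genes of a cell cycle list were higher with Mki67 (median 3.51), as the split would have it, with Ccna2 at 5.58, Birc5 at 4.96, Ube2c at 4.82 and Rrm2 at 4.71.

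The steepest differences by log2 fold change, among called genes at 20 CPM or more in either class, were cell cycle and histone genes on the one side: Pbk at 5.98, Hist1h2af at 5.98, Hist1h3b at 5.87, Nuf2 at 5.81 and Hmmr at 5.67. On the other side stood Ccl5 and Cma1, the gene of a mast cell chymase, at -2.26 (4.79 ± 0.101 against 21.8 ± 6.07 CPM), then Kdm5b at -1.61, Khdc1a at -1.46 and Pde2a at -1.36. Gzma had a fold of 2.27 beside 5.25 for Ccl5. Without scaling factors 1706 genes were higher and 834 lower, and the 4 granule members kept their calls.

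Markers of NK cells and of other cells also differed between the classes with and without Mki67. Of 11 NK markers 10 were lower with Mki67 (median log2 fold change -0.56; 6 without the sGSN-/- library), with Klra8 at -1.11, Klra4 at -0.93, Txk at -0.77 and Tyrobp at -0.74, and their summed level was 3916, 3639 and 3699.6 CPM with Mki67 against 5340 CPM, 5652 CPM and 5493 CPM without it. Of 6 cDC1 markers Xcr1 (1.14) and Wdfy4 (0.58) were higher and Irf8 (-0.33) was lower (median 0.64), the summed levels being 842, 1069.9 and 976 CPM against 872, 939 and 968 CPM, with Irf8 the most abundant and Clec9a at 0 in sGSN-/-Clec9a-/- without Mki67. Neither Xcr1 (0.19, edgeR adjusted p = 0.837) nor Wdfy4 (0.36, 0.333) was called once MHC class II rich barcodes were left out, nor were they without the sGSN-/- library (0.91 with 0.267, and 0.41 with 0.282), and Irf8 was not without the sGSN-/-Clec9a-/- library (-0.26, 0.0595). With all 3 libraries the edgeR adjusted p was 0.0280 for Xcr1, 0.0300 for Wdfy4 and 0.0109 for Irf8. Of 8 macrophage or monocyte markers Ly6c2 alone was called, lower (median 0.39), and not without the sGSN-/- library (-0.74, 0.0657), while their summed level was 1548, 1798 and 2535 CPM with Mki67 and 1754, 1229.9 and 1656 CPM without it, led by Lyz2. Of 4 cDC2 markers tested, 5 plasmacytoid cell markers and 5 markers of type 1 innate lymphoid cells 0 were called in edgeR (medians -0.04, -0.70 and 0.05), and 1, 0 and 0 in DESeq2. Without the WT library 3 plasmacytoid markers were lower and 3 macrophage markers higher, without the sGSN-/-Clec9a-/- library 4 cDC1 markers were higher, and on thinned counts 4 macrophage markers were. Trdc and Trdv4 of 3 gamma-delta T cell genes (median -0.62) and Trbc1, Trbc2 and Lck of 9 T cell genes (median -0.19) were lower, the last 3 not without the sGSN-/- library (edgeR adjusted p = 0.0853, 0.402 and 0.133). Median depth was 21764, 21108 and 17967.5 UMIs with Mki67 and 8654, 6826.5 and 6086 UMIs without it. The part of depth and of other cells' RNA in the member differences was not tested, beyond the fits on thinned counts and without the MHC class II rich barcodes, where Gzma, Gzmb, Prf1 and Nkg7 were again lower.

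A class of 318 barcodes with Cd3e and without Ncr1 or Klrb1c (66, 137 and 115) was set against the 4523 NK-marker barcodes without Cd3e. Of these Cd3e barcodes 87.9%, 86.9% and 92.2% had 2 or more of the 5 T cell receptor complex genes, but 27.3%, 32.1% and 33.0% also had 6 or more of the 11 NK markers. Cd3e barcodes had less Gzma and Prf1 than NK-marker barcodes and almost no Gzmc. Gzmb and Nkg7 were lower in each library with overlapping ranges, and their call and direction depended on the alternative, as given below. Gzma was at 589, 621 and 738 CPM in Cd3e barcodes, a mean of 649 ± 78.7 CPM against 2670.01 ± 242 CPM, and few barcodes carried it, since 50% of its UMIs in Cd3e barcodes lay in 3, 7 and 6 barcodes and the top 10% of barcodes held 78.7%, 69.9% and 72.3%. Prf1 was at 30.4, 30.7 and 40.3 CPM, a mean of 33.8 ± 5.62 CPM against 226 ± 8.94 CPM. Both lay far under the NK-marker range in each library. Gzmb was at 524, 657 and 570.3 CPM, a mean of 584 ± 67.3 CPM against 689 ± 38.8 CPM, and Nkg7 was at 911, 718 and 1046 CPM, a mean of 892 ± 165 CPM against 1024 ± 30.5 CPM. For these 2 genes the ranges of the classes overlapped. Gzmc had 24, 75 and 21 UMIs (27.1, 37.1 and 15.7 CPM), of which 1 barcode held 23, 46 and 13, so in each library most of the Gzmc of this class lay in a single barcode. With MHC class II rich barcodes left out, chosen after seeing the data, the mean levels in Cd3e barcodes were 1369 CPM for Gzma, 1122 CPM for Gzmb, 64.9 CPM for Prf1, 1635 CPM for Nkg7 and 19.7 CPM for Gzmc, and those in all NK-marker barcodes were 3881, 989, 322, 1479 and 1616 CPM. The thinned shares with a UMI were 77.0% for Nkg7 (unthinned 79.8%), 51.0% for Gzmb (67.2%), 32.4% for Gzma (45.2%), 15.1% for Prf1 (27.5%) and 4.41% for Gzmc (7.91%), with 38 barcodes left out, and the cDC1 shares given above are their background.

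All 8 members passed the filter, but Gzmd, Gzme and Gzmf, with 1, 0 and 1 UMIs in Cd3e barcodes, passed it only through the NK-marker class, so their tests are not used. Of the other 5 members 0 were called higher and 3 lower in Cd3e barcodes in the edgeR quasi-likelihood test with Benjamini-Hochberg adjusted p, and in DESeq2. The background was 1211 of 11597 genes (10.4%), with 657 higher (5.67%) and 554 lower (4.78%). Prf1 fell by 2.78 on the log2 scale (SE 0.124, edgeR adjusted p = 1.70e-08), Gzma by 2.07 (SE 0.118, 1.91e-07) and Gzmc by 5.42 (SE 0.323, 2.98e-07), each lower in 3 of 3 libraries and called in all 12 alternatives. Gzmb at -0.27 (SE 0.0923, adjusted p = 0.0910) and Nkg7 at -0.23 (SE 0.127, adjusted p = 0.290) were not called in edgeR, though lower in 3 of 3 libraries. Gzmb was called with library as a block (-0.27, edgeR adjusted p = 0.0343) and without a filter on low counts (-0.31, 0.0120), Nkg7 without that filter (-0.28, 0.0282), and the adjusted p over alternatives ranged from 0.0120 to 0.697 for Gzmb and from 0.0282 to 0.773 for Nkg7. With MHC class II rich barcodes left out their log2 fold changes were 0.11 and 0.08. As a description, Gzmf had 200 UMIs in NK-marker barcodes against 1 UMI in Cd3e barcodes, a pooled ratio of 15.0 with a 95% counting interval from 2.66 to 596. Gzmd had 423 UMIs against 1, a ratio of 31.8 (5.67 to 1257), and Gzme 371 UMIs against 0, by counting at least 9.29-fold lower against a floor of 3 counts over the class. These intervals and this bound treat UMIs as independent, although a few NK-marker barcodes carried much of the UMIs. By barcode, Gzmf was detected in 48 of 4523 NK-marker barcodes and 1 of 318 Cd3e barcodes. Gzmd was detected in 45 and 1 of them, and Gzme in 68 and 0. With so few barcodes, the size of these differences is uncertain. The median log2 fold change of the other 5 members was -2.07, beside -0.00467 over all genes. Called genes numbered 602 without the WT library and 316 without the sGSN-/- library.

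Of 4 granzyme genes outside the members 2 could be tested, and both were higher in Cd3e barcodes. Gzmk, the gene of a granzyme found in memory-like CD8 T cells, was at 82.3 ± 16.8 CPM in Cd3e barcodes and 1.63 ± 0.195 CPM in NK-marker barcodes (log2 fold change 5.59, edgeR adjusted p = 2.64e-09), and Gzmm was at 30.3 ± 11.4 and 4.73 ± 1.99 CPM (2.59, 0.000626), each higher in 3 of 3 libraries, whereas Gzmg and Gzmn had 0 UMIs in Cd3e barcodes. The median log2 fold change of the 2 was 4.09. Of 13 granule assembly genes 6 were lower and 0 higher (median log2 fold change -0.28; 4 lower without the sGSN-/- library), among them the serpin genes Serpinb9b at -3.98, Serpinb9 at -1.68, Serpina3g at -1.63 and Serpinb6b at -1.41. Of 9 exocytosis genes Lyst (0.79) and Coro1a (0.36) were higher (median 0.14), and Coro1a was not called without the WT library (0.31, edgeR adjusted p = 0.170) or without the sGSN-/- library (0.34, 0.187).

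Other effectors were split between the classes. The chemokine genes Xcl1 (-2.80), Ccl3 (-1.35) and Ccl4 (-1.06) were lower in Cd3e barcodes and Ccl5 was higher (0.73; 3438 ± 603 against 2024 ± 501 CPM), 4 of 10 effectors in all (median -0.12), though Ccl5 was not called without the WT library (0.56, edgeR adjusted p = 0.152) or the sGSN-/- library (0.82, 0.0978). Among 10 cytokine receptors Il7r (1.67) and Il2ra (1.25) were higher, and 3, with Il2rb (-1.67), Il12rb2 (-1.26) and Il18rap, were lower (median -0.05). Among 11 transcription factors Ikzf2 was higher and Eomes (-1.98), Tbx21 (-1.20), Runx3 (-0.79) and Tcf7 were lower (median -0.16). Ikzf2 at 0.76 was not called without the WT library (0.80, edgeR adjusted p = 0.103) or the sGSN-/- library (0.66, 0.314). Nor was it called without the highest doublet scores (0.49, 0.168) or at 2 or more UMIs (0.35, 0.325). Cell cycle genes gave 0 calls of 13 in edgeR (median 0.07), 1 in DESeq2 and at most 3 in the alternatives.

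Cell type markers followed the way the classes were made. Of 10 T cell markers 9 were higher in Cd3e barcodes (median 4.43), with Cd8b1 at 7.29, Cd8a at 6.95, Cd5 at 6.76 and Cd3d at 5.02, and 10 of 11 NK markers were lower (median -1.67), with Klra4 at -8.24 and Klra8 at -6.80. Summed T cell markers were 3770.1, 2815 and 3637 CPM, led by Trbc2, against 642, 654 and 630.2 CPM in all NK-marker barcodes, led by Trbc1. Among called genes at 20 CPM or more in either class, the 5 largest log2 fold changes were those of Il17a, with 0 UMIs in NK-marker barcodes, Themis at 10.10, Cd8b1, Fam169b at 6.99 and Cd8a, and the 5 smallest those of Klra4, Klra8, Tmsb15a at -6.70, Gzmc and Klra9 at -5.35. Il17a passed the filter only through the Cd3e class, so its test is not used. Klra4 and Klra8 had no UMI in the Cd3e barcodes of WT, so the order of folds this large is uncertain. Of 5 markers of type 1 innate lymphoid cells 4 were higher (median 0.67), with Cxcr6 at 5.03, but 2 with MHC class II rich barcodes left out. Tcrg-C1 was higher and Trdv4 lower of 3 gamma-delta genes (median 0.01), and Tcrg-C1 (2.79) was not called without the sGSN-/- library (edgeR adjusted p = 0.204) or the sGSN-/-Clec9a-/- library (0.0758). MHC class II rich barcodes were 35.2% of the Cd3e class. Its summed cDC2 markers were 308, 402 and 469.5 CPM against 253.5, 309.9 and 302 CPM in NK-marker barcodes, and 2 of 4 tested were higher (median 0.49), but 0 without those barcodes and 1 without the sGSN-/- or the sGSN-/-Clec9a-/- library. Its summed cDC1 markers were 701, 799 and 561 CPM with Clec9a at 0 in sGSN-/-Clec9a-/-, against 858, 1002 and 971 CPM; Naaa and Wdfy4 were higher and Irf8 lower of 6 (median 0.56), with 0 higher without the WT or the sGSN-/- library. Of 8 macrophage or monocyte markers Ly6c2 was higher at 3.05 (median -0.16), their sum being 1786, 2344 and 2371 CPM against 1656, 1503 and 2009.5 CPM, and 0 of 3 plasmacytoid markers tested were called in edgeR and in DESeq2 (median 0.85; 1 without the WT library). The part of these cells' RNA in the member differences was not tested, beyond the fit without MHC class II rich barcodes, in which Gzma, Gzmc and Prf1 were again lower.

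Most Cd3e barcodes, 223 of 318, carried Cd8a or Cd8b1 UMIs, against 19 with Cd4 and neither Cd8 gene and 76 with none of the 3. In the Cd8 group Gzmb was at 641, 873 and 655 CPM, Gzma at 651, 736 and 859.9 CPM, Nkg7 at 1215, 981 and 1199 CPM and Prf1 at 39.5, 37.8 and 50.4 CPM. Gzmc had 1, 20 and 8 UMIs there. Taken as a description, Gzmb and Nkg7 in this group lay near or above the NK-marker levels given above, while Gzma and Prf1 stayed under it.

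NK-marker barcodes were also split by whether a UMI of a Gzmc to Gzmf gene was detected. Ambient RNA can give such a UMI, and the cDC1 share with Gzmc given above is its background. The 1629 barcodes with a UMI of Gzmc, Gzmd, Gzme or Gzmf had more Gzmb and less Gzma than the 2995 without one. For Prf1 and Nkg7 the ranges overlapped, and their direction depended on the alternative, as given below. Gzmb was at 976, 822 and 765 CPM with such a UMI and 470.1, 536 and 557 CPM without it, and Gzma was at 2015, 1988 and 2252 CPM against 2762, 3398 and 3153 CPM. For both genes the ranges of the 2 classes did not overlap, and they lay in opposite order. Prf1 was at 253, 213 and 219 CPM against 213, 229 and 211 CPM, and Nkg7 at 1033, 978 and 999 CPM against 959, 1048 and 1076 CPM, with overlap for both. Depth differs between these classes by construction, with medians of 15337, 13215 and 12540.0 UMIs against 8554, 6221 and 6144.5 UMIs, since a deep barcode is more likely to show a UMI of any gene.

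Gzmc, Gzmd, Gzme and Gzmf made the split, so 4 of 8 members were left to test, and all 4 passed the filter. By edgeR quasi-likelihood with Benjamini-Hochberg adjustment 1 was higher and 1 lower, beside 3364 of 11565 genes called (29.1%), 1782 higher (15.4%) and 1582 lower (13.7%), so 2 of 4 is not far from the background. Gzmb had a log2 fold change of 0.76 (SE 0.110, edgeR adjusted p = 0.00121; 0.62 on thinned counts), higher in 3 of 3 libraries, and was called in all 13 alternatives. Gzma fell by 0.52 (SE 0.0990, edgeR adjusted p = 0.00423), lower in 3 of 3 libraries, but was not called without the sGSN-/- library (-0.41, adjusted p = 0.0980; range over alternatives 1.73e-06 to 0.0980). Prf1 at 0.12 (SE 0.0857, adjusted p = 0.306, higher in 2 of 3 libraries) and Nkg7 at 0.02 (SE 0.0820, adjusted p = 0.889, higher in 1 of 3) were not called in edgeR. Their direction depended on the class: with MHC class II rich barcodes left out Prf1 was at -0.29 (edgeR adjusted p = 0.00707, range 0.00707 to 0.960) and Nkg7 at -0.35 (0.00500, range 0.00500 to 0.908), and at 2 or more UMIs of the NK markers Nkg7 was at -0.33 (0.0105). Without the WT library Nkg7 was at -0.07 (edgeR adjusted p = 0.665). The median of the 4 was 0.07, beside -0.02 over all genes. Without scaling factors 1410 genes were higher and 1808 lower. Called genes numbered 1661 without the WT library, 837 without the sGSN-/- library and 1806 on thinned counts.

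**Figure D3:**
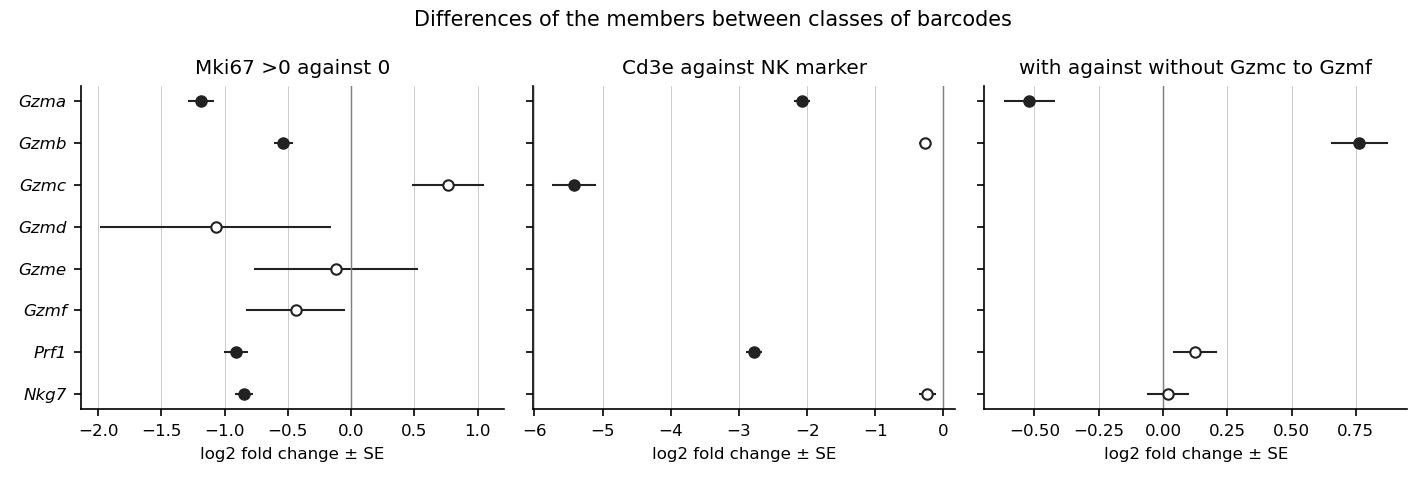
Log2 fold changes of the members with their SE in 3 comparisons of classes over 3 libraries. Filled points were called by edgeR at an adjusted p under 0.05. Genes that made a split are not drawn in the panel of that split. Genes with 1 UMI or none in Cd3e barcodes are left out of the Cd3e panel only. Gzma lies under 0 in all 3 panels, at -1.19, -2.07 and -0.52.

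Secreted factors also differed between barcodes with and without a Gzmc to Gzmf UMI. Of 10 other effectors 4 were higher and 6 lower (median log2 fold change -0.35): Csf2, the gene of a myeloid growth factor, rose from 1.53 ± 0.531 to 17.97 ± 5.23 CPM (3.64), the death ligand gene Tnfsf10 rose by 1.51 and the chemokine gene Xcl1 rose from 774 ± 16.3 to 1949 ± 260 CPM (1.39), while Ccl5 fell by 2.20, from 3244 ± 560 to 681 ± 144 CPM. With Mki67 at 0 in all barcodes 4 were higher and 3 lower, and without the sGSN-/- library the same numbers were. Of 13 granule assembly genes 4 were higher and 3 lower (median -0.01), led by Serpina3g at 0.70, Cst7 at 0.53, Ctsc at -0.71 and Lamp2 at -0.57. Cst7 (0.56, edgeR adjusted p = 0.0748) and Lamp2 (-0.58, 0.0563) were not called without the sGSN-/- library. Nor were Cst7 (0.26, 0.131), Ctsc (-0.31, 0.122) and Lamp2 (-0.20, 0.143) at 2 or more UMIs of the NK markers. With MHC class II rich barcodes left out Cst7 was at 0.24 (0.0510) and Ctsc at -0.01 (0.938). Without the sGSN-/- library 1 assembly gene was higher and 1 lower, and at 2 or more UMIs of the NK markers 1 and 2 were. Of 9 exocytosis genes Rab27a (0.54), which brings granules to the membrane, was higher and Lyst (-0.59) lower (median -0.10), the former not without the WT library (0.41, 0.0507) or the sGSN-/- library (0.56, 0.0828). Gzmk (-1.26) was lower of 2 tested granzymes (median -0.90), but not without the sGSN-/- library (-0.83, edgeR adjusted p = 0.330). It was also not called with Mki67 at 0 in all barcodes (-0.35, 0.579) or at 2 or more UMIs of the NK markers (-1.32, 0.0530).

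Genes of division were higher with a Gzmc to Gzmf UMI, all 13 of the cell cycle list (median 0.86, beside -0.02 over all genes), with Tyms at 1.20, Rrm2 at 1.07, Cdk1 at 0.92 and Ccna2 at 0.90. Without the sGSN-/- library 8 of 13 were higher, and among barcodes with Mki67 at 0, 7 of 11 tested. Rrm2 was not called among barcodes with Mki67 at 0 (0.32, edgeR adjusted p = 0.550). Among 11 transcription factors Ikzf2 (1.04) and Runx3 were higher and Prdm1 (-0.94), Zeb2 (-0.87) and Nfil3 (-0.47) lower (median -0.13), Nfil3 not without the WT library (-0.30, edgeR adjusted p = 0.0525) or the sGSN-/- library (-0.55, 0.0718), and 6 transcription factors were lower at 2 or more UMIs of the NK markers and 7 without MHC class II rich barcodes. Of 10 cytokine receptors 4 were higher and 3 lower (median 0.10), with Il2ra at 0.69, but 1 and 3 without the WT library, at 2 or more UMIs or without MHC class II rich barcodes, and 1 and 1 without the sGSN-/- library. Of 5 markers of type 1 innate lymphoid cells Cxcr6 (1.11) and Itga1 (1.07) were higher and 3 lower (median -0.59). Neither of those 2 was called without the sGSN-/- library (1.06 with 0.0585, and 0.996 with 0.0543, edgeR adjusted p), and the 3 lower ones were not called at 2 or more UMIs of the NK markers or without MHC class II rich barcodes.

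Markers of myeloid cells were lower in barcodes with a Gzmc to Gzmf UMI. All 8 macrophage or monocyte markers were lower (median -0.93), with C1qc at -1.24, C1qb at -1.19 and C1qa at -1.19, and their sum was 846, 1141 and 1429 CPM against 2461, 1942 and 2362 CPM, led by Lyz2 with no marker at 0. All 4 cDC2 markers tested were lower (median -1.02), their sum being 138, 213 and 207 CPM against 368, 428 and 360.0 CPM, with Clec4a4 at 0 in WT. These counts were 1 of 8 and 1 of 4 at 2 or more UMIs of the NK markers, and 2 of 7 and 2 of 4 with MHC class II rich barcodes left out, while without the WT library 5 and 4 and without the sGSN-/- library 4 and 2 were lower. Of 6 cDC1 and 5 plasmacytoid markers 0 were called in edgeR and in DESeq2 (medians -0.29 and -0.24; at most 4 and 2 in the alternatives). NK markers gave 4 higher and 3 lower of 11 (median 0.17), but 0 and 0 without the sGSN-/- library, 0 and 3 without the WT library and 0 and 5 without MHC class II rich barcodes. T cell genes gave 3 higher of 9 (median 0.21; 1 without the WT, 1 without the sGSN-/- and 5 without the sGSN-/-Clec9a-/- library), and gamma-delta genes 0 of 3 in edgeR and in DESeq2 (median -0.01). Neutrophil, mast cell or basophil and B cell genes were too low to test in all 3 comparisons, with summed levels of at most 0.117, 1.14 and 0.294 CPM in NK-marker barcodes. The part of myeloid RNA in the difference of Gzma and Gzmb was not tested, beyond the fit without MHC class II rich barcodes, in which Gzmb was again higher and Gzma lower.

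The cDC1s of the authors' table give the level of these transcripts in cells not known to make them. In 2316, 1712 and 1778 cDC1s Gzma was at 5.63, 21.4 and 10.5 CPM, Gzmb at 1.74, 9.72 and 1.91 CPM, Gzmc at 2.91, 10.02 and 2.33 CPM, Prf1 at 0.428, 1.06 and 0.652 CPM and Nkg7 at 2.45, 8.66 and 3.82 CPM. Gzmd, Gzme and Gzmf had 1, 3 and 1 UMIs in all cDC1s together. Each of the 5 main members was highest in the sGSN-/- library, which also had the largest share of NK-marker barcodes. As a share of the NK-marker level of the same library, Gzma stood at 0.236%, 0.816% and 0.374%, Gzmb at 0.241%, 1.403% and 0.3003%, Gzmc at 0.190%, 0.794% and 0.348%, Prf1 at 0.184%, 0.482% and 0.305% and Nkg7 at 0.246%, 0.857% and 0.365%. With 2 cDC1s of 20 or more member UMIs left out, chosen after seeing the data, the shares in sGSN-/- were 0.908% for Gzmb (95% counting interval 0.768% to 1.07%), 0.698% for Gzma, 0.795% for Gzmc, 0.483% for Prf1 and 0.754% for Nkg7.

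**Figure D4:**
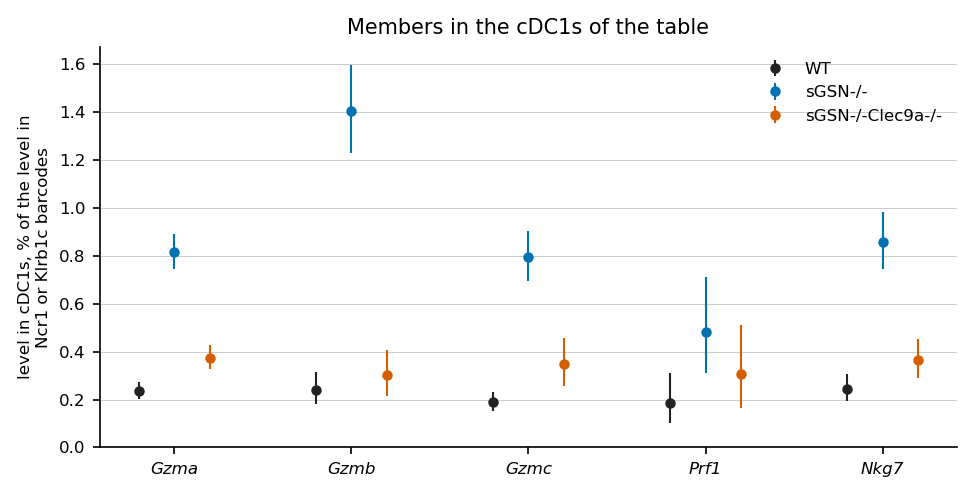
Level of 5 members in the cDC1s of the table as a percentage of the level in NK-marker barcodes of the same library, with 95% counting intervals. Shares are highest in the sGSN-/- library for each gene, and Gzmb there is at 1.403%, or 0.908% without 2 cDC1s rich in member UMIs.

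Most of the member UMIs of cDC1s were spread over many cells. At least 1 member UMI was present in 16.2%, 44.2% and 19.9% of cDC1s, with 431, 1203 and 413 member UMIs in all. In sGSN-/- 2 cDC1s of the authors' cluster 8 had 92 and 88 member UMIs, 15.0% of the total of that library, and no cDC1 had more than 8 in WT or 7 in sGSN-/-Clec9a-/-. The former had 57 UMIs of Gzma, 19 of Gzmb, 8 of Ncr1, 4 of Klrb1c and 17 of Xcr1, a cDC1 marker, with 9 of 11 NK markers detected. The latter had 62 UMIs of Gzmb, 17 of Gzma and 0 of Xcr1. With both left out, the members of cluster 8 in sGSN-/- together stood at 52.8 CPM in place of 193 CPM, and the other clusters of 40 or more cells lay between 37.4 and 75.4 CPM.

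Most UMIs of the 5 main members lay in NK-marker barcodes, which held 95.5%, 93.8% and 92.7% of the Gzma UMIs of their library, 92.5%, 87.8% and 89.1% of Gzmb, 96.3%, 94.9% and 93.7% of Prf1, 92.1%, 90.7% and 87.9% of Nkg7 and 96.5%, 96.5% and 83.1% of Gzmc. Cd3e barcodes without an NK marker held 3.497%, 6.85% and 6.40% of Gzmb and 4.39%, 5.30% and 7.04% of Nkg7, but 0.0887%, 0.234% and 0.156% of Gzmc. The remaining barcodes held 2.64%, 2.15% and 16.1% of Gzmc. The cDC1s held under 1% of Gzma, Gzmc, Prf1 and Nkg7 in each library.

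The genes most like each member were taken over 18 sums, 6 classes in 3 libraries, by Pearson correlation of log2(CPM + 1) among 6744 genes, as a description, since the sums share libraries and the classes were made with NK and T cell markers. Gzma was nearest to Il2rb (r = 0.997), Tbx21 (0.994) and Gm19585 (0.989). Prf1 was nearest to Txk (0.992), Eomes (0.991) and Trdv4 (0.991), so that a T-box factor gene stood near each of these 2 members. Gzmb was nearest to Nkg7 (0.997), Gimap4 (0.996) and Trdc (0.996), and Nkg7 to Gimap4 (0.998), Skap1 (0.998) and Ifng (0.997). Gzmc was nearest to Nrgn (0.984), Car2 (0.980) and Klra7 (0.980), none of them shared with another member. Gzmd, Gzme and Gzmf had means over libraries under 20 CPM in each class. Among the 6744 genes, which were at 20 CPM or more, their highest values were 0.857 with Tmem30a, 0.935 with Pus1 and 0.952 with Rpl15. Gzmd and Gzme correlated with each other at 0.954.

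The members differ in where they lie in the genome (GRCm38). Gzmb (ENSMUSG00000015437, chr14:56258838-56262260), Gzmc (ENSMUSG00000079186, chr14:56231441-56234656), Gzmf (chr14:56205263-56211417), Gzmd (chr14:56129556-56132608) and Gzme (ENSMUSG00000022156, chr14:56117626-56120625) lie on the minus strand in an interval of 145 kb that holds 7 protein-coding genes, all of them granzyme genes, the other 2 being Gzmg and Gzmn. Gzma (ENSMUSG00000023132, chr13:113093825-113100981, minus strand), Prf1 (chr10:61297833-61304680, plus strand) and Nkg7 (ENSMUSG00000004612, chr7:43437073-43438249, plus strand) lie elsewhere. Gzmb and Gzmc are thus close neighbours with different patterns, Gzmb being lower with Mki67 and present in Cd3e barcodes and Gzmc neither called lower with Mki67 nor found in Cd3e barcodes beyond 120 UMIs.

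The promoter windows of 300 bases from RefSeq (GRCm38.p6) matched all 8 members by symbol. Those of Gzmc, Gzmd, Gzme and Gzmf are close copies, Gzmc being 86.1%, 86.7% and 86.9% identical to the other 3 and Gzmd 94.0% identical to Gzme, whereas Gzmb and Gzmc share 59.6% of aligned bases. All pairs with a window outside these 4 genes lay between 55.6% (Gzmf and Nkg7) and 66.1% (Gzmb and Prf1). The Gzmb window lies wholly upstream of the gene as placed above, while the Gzmc window overlaps its gene. The letters ACCACA, which Runx factors are known to bind, were searched on both strands (TGTGGT on the other) and are present in all 8 windows, with 2 matches each in Gzmb, Gzmc, Gzmd, Gzme and Gzmf and 1 each in Gzma, Prf1 and Nkg7, while 16.8% of 32851 promoters of the same length hold them. TCACAC, of T-box factors, is present on either strand in Gzmb and Nkg7 and in 14.5% of all promoters, and TATAAA on the gene strand is in none of the 8 windows and in 8.32% of all. A match is a description of the letters in the window. Shown 5′ to 3′ on the gene strand, with ACCACA or TGTGGT in capitals, are the 4 members that were lower together with Mki67, and Gzmc and Gzmd, which share most of their window: Gzma chr13:113100932-113101231 (minus), Gzmb chr14:56262285-56262584 (minus), Prf1 chr10:61297586-61297885 (plus), Nkg7 chr7:43436888-43437187 (plus), Gzmc chr14:56234608-56234907 (minus) and Gzmd chr14:56132544-56132843 (minus).
Gzma: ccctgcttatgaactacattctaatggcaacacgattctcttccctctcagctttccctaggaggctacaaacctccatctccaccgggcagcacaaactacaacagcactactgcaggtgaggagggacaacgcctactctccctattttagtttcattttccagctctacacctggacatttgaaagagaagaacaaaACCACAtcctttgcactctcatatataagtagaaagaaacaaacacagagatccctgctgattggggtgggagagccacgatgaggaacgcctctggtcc
Gzmb: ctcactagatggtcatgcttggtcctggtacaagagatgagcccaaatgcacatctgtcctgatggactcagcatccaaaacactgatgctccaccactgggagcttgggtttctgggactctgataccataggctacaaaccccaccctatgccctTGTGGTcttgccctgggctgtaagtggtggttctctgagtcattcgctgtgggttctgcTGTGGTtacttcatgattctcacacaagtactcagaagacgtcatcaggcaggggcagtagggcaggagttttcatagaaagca
Prf1: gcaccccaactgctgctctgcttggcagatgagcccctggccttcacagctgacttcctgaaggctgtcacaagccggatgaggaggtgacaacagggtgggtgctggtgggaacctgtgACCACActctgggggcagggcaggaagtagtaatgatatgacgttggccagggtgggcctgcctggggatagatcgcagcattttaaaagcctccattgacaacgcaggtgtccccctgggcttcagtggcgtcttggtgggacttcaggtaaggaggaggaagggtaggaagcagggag
Nkg7: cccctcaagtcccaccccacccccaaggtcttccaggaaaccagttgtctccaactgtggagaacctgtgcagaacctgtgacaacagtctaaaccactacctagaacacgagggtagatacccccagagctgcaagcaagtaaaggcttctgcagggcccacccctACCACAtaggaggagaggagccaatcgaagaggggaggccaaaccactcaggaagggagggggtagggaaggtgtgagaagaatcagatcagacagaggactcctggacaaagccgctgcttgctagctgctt
Gzmc: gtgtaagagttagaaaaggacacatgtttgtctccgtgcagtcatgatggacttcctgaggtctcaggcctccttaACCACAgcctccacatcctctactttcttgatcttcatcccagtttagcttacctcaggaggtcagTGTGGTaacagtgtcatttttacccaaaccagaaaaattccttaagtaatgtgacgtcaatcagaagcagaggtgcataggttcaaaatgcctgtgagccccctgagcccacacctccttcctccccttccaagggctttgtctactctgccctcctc
Gzmd: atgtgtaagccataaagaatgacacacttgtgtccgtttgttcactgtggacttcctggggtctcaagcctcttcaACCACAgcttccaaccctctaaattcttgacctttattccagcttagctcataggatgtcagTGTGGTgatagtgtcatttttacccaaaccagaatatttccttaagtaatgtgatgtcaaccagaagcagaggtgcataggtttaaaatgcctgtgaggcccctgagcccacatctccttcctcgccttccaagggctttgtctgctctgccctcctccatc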

How the data were processed

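The counts are raw UMI counts of 3 filtered matrices, as deposited, which the authors made with Cell Ranger (matrix header 6.0.1) on mm10 (GRCm38), and the authors' cDC1 table came from Seurat, given as 4.0.0 in their processing notes and as another version in the methods of the paper. Nothing was normalised or imputed before reading. Coordinates of a map of cells in that table were not used. Barcodes of the table were cDC1s, and all other barcodes were put into classes by UMIs of Ncr1, Klrb1c, Cd3e, Mki67, C1qa, C1qb, C1qc and Siglech. The members and the lists were chosen with earlier results of these data known.

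UMIs were summed by library and class, and 3 comparisons were tested: NK-marker barcodes with against without Mki67, Cd3e against NK-marker barcodes, and NK-marker barcodes with against without a Gzmc to Gzmf UMI. Each used edgeR 4.0.16 quasi-likelihood with TMM factors, filterByExpr and Benjamini-Hochberg adjusted p at 0.05. The libraries of compared classes come from the same pools and were not paired in the model. Sums of the same library correlated across classes at 0.235, 0.201 and 0.355 in the comparison by Mki67, at 0.108, 0.0330 and 0.137 in that of Cd3e barcodes and at 0.153, 0.154 and 0.265 in the Gzmc to Gzmf split, and a fit with library as a block was run as an alternative. The scripts were checked on simulated data with known changes, where small changes were often missed, most of all in the Cd3e comparison, and the share of unchanged genes among the calls was above the threshold in each comparison.

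Genes named besides the members are up to 4 called genes of a list with the largest absolute log2 fold change, the 5 largest and 5 smallest log2 fold changes among called genes at 20 CPM or more in the first 2 comparisons, and the 3 nearest genes by correlation. Some other called genes are named where a library or an alternative ended their call, a choice made after the values were seen. Doublets were kept, and leaving out the 6% highest Scrublet scores in each library was an alternative. Other alternatives were DESeq2 1.42.0, no TMM factors, no filter, at least 200 genes with a mitochondrial share up to 17.5%, 2 or more UMIs of the NK markers, 3000 UMIs drawn from each barcode, no Cd3e barcodes, Mki67 at 0, each library left out, and, chosen after seeing the data, no barcodes with 1% or more MHC class II UMIs and, for the cDC1s, none with 20 or more member UMIs. In the alternative at 2 or more UMIs the threshold for Cd3e was raised as well, and the Cd3e class of the comparison then held 49, 96 and 95 barcodes. Other tools were Python 3.11.15, numpy 2.4.6, scipy 1.17.1, pandas 2.3.3, scanpy 1.11.5, Biopython 1.88, matplotlib 3.10.9 and R 4.3.3.

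With 1 library for each genotype, differences between genotypes could not be tested, and library effects cannot be told from them. Classes rest on single UMIs, so ambient RNA and mixed droplets enter each of them. The 3 libraries of a class are pools of different genotypes, and many calls were not made without the sGSN-/- library. A fit that leaves out a library has fewer libraries in each class, so a call can end there at a similar log2 fold change. RNA levels do not give protein, granule content or killing.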

Additional observations from a re-analysis of the deposited data

How the results depend on the processing

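Of 38 alternatives for the number of called genes 28 stayed within 1.5 times and 10 moved further. For Cd3e against NK-marker barcodes 1834 genes were called without a filter on low counts, which tests more genes, and 612 on thinned counts. For barcodes with against without a Gzmc to Gzmf UMI 2100 were called at 2 or more UMIs and 1806 on thinned counts. Leaving out 1 library gave between 1016 (without sGSN-/-) and 2413 (without sGSN-/-Clec9a-/-) called genes by Mki67, between 316 and 1162 for Cd3e, and between 837 and 2862 for the Gzmc to Gzmf split, in the same order of libraries. Each of these fits had fewer libraries in a class than the main fit. The cause was not tested.

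Of 1887 alternatives for a log2 fold change 1740 kept their call, 125 were weaker, 15 stronger and 7 reversed, all 7 in the Gzmc to Gzmf split. Without MHC class II rich barcodes, chosen after seeing the data, Klrc1 was at -0.00794, Tmem176a at 0.29, Trbc2 at -0.0360, Prf1 at -0.29 and Nkg7 at -0.35. At 2 or more UMIs Tmem176a was at 0.0829 and Nkg7 at -0.33. A change of sign without a call in either fit was not counted as reversed. Such were Gzmd and Gzme by Mki67 without the WT library. Gzmb and Nkg7 in the Cd3e comparison without MHC class II rich barcodes were others, with values given above. The cause was not tested. Of 208 alternatives for a level 131 moved by no more than 1 SD over the 3 libraries and 77 moved further. The mean Gzma level in NK-marker barcodes was 4152 CPM on thinned counts and 3881 CPM without MHC class II rich barcodes, in place of 2609 CPM, and in Cd3e barcodes it was 1031 and 1369 CPM in place of 649 CPM.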

Other observations

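In 101 barcodes Cd3e was found together with Ncr1 or Klrb1c (14, 46 and 41 by library). Gzma stood there at 299.9, 578 and 972 CPM and Gzmc at 258, 1408 and 476 CPM, while Gzmd, Gzme and Gzmf had 0 UMIs.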
